A study of Mus musculus with 2 samples.

Results

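Genes of the ubiquitin system were compared between marginal zone and follicular B cells of mouse spleen. They were taken by name: the E2 conjugating enzymes (Ube2), the F-box proteins (Fbxl, Fbxo and Fbxw), the Trim proteins, the ubiquitin-specific proteases (Usp) and the cullins (Cul). Among the 12393 genes with a probe set of their own on the array, 147 carried such a name: 26 E2, 36 F-box, 39 Trim, 39 Usp and 7 cullin genes. The name rule uses no measured value, but the members were chosen with earlier results of these data known.

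Both populations were sorted from splenic B cells of 3 wild-type female C57BL/6 mice, enriched on beads against B220. Marginal zone B cells had intermediate CD23 and high CD21, and follicular B cells had high CD23 and intermediate CD21. RNA of the pooled cells, 100 ng or so, went through a 2-cycle labelling protocol onto 1 Affymetrix array per population. Whether the same mice gave both populations is not stated in the labels. The gate showed in the arrays: the CD23 gene Fcer2a stood at 89.6 in marginal zone and 726.8 in follicular cells, and the CD21 gene Cr2 at 889.9 in marginal zone and 277.9 in follicular cells.

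Ubiquitin is a small protein that cells attach to other proteins in a relay. An E1 enzyme activates it, an E2 enzyme carries it, and a ligase brings the E2 to the substrate; the chain that results can send the substrate to the proteasome or change its activity. Cullins are scaffolds of the largest class of ligases, F-box proteins are exchangeable substrate receptors of the Cul1 scaffold, Trim proteins are ligases of another kind with many members in antiviral defence, and Usp proteases take ubiquitin off again. In B cells the system takes part in NF-kB signalling and in the turnover of transcription factors.

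Few measured members were past 2-fold between the populations. Of the 147 genes, 110 were measured, meaning that the scaled MAS5 signal exceeded 12.7, the median of all values, on at least 1 array; the other 37 lay at or under that floor on both. In all, 5 of the 110 (4.55%) were at least 2-fold apart, against 9.25% of all 7695 measured genes. Trim25, Trim59 and Fbxl14 were lower in marginal zone cells, and Fbxw8 and Trim39 were higher. That is 1.82% of the measured members higher in marginal zone cells, against 4.39% of all genes, and 2.73% lower, against 4.86% of all genes. The counts rest on the floor. With it at the 25th percentile, 12 of 136 members were past 2-fold higher and 10 lower in marginal zone cells, against 1277 and 1389 of 11035 genes. With 1 array per population the values have no replicate error, so no test was made, differences are sizes only, and the number of arrays limits their precision. The SD between measured probe sets of 1 gene, 0.43 on the log2 scale over 2622 genes, covers probe behaviour but not mice, sorts or labelling. MAS5 signals depend on the probes, so signals are compared between populations; a ranking by signal within a family served only to choose genes to name.

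At a lower threshold more members were lower than higher in marginal zone cells, and the same was true of all genes. At 1.5-fold, 22 members (20.0%) were lower in marginal zone cells, against 15.8% of all genes, and 9 (8.18%) were higher, against 13.7% of all genes. On the log2 scale the ratio (marginal zone over follicular) had a median of -0.11 over the members and -0.03 over all measured genes, and 58.2% of members against 52.2% of all genes were lower in marginal zone cells. With the mean of probe sets, 55.5% of members and 52.8% of all genes were lower. With the floor at the 75th percentile the shares were 63.0% and 51.3%. The quartiles of the log2 ratio, -0.45 and 0.22 for the members and -0.38 and 0.32 for all genes, overlapped over most of their range. In 17 measured members 1 array was under the floor, the follicular array in 9 and the marginal zone array in 8, so their folds are lower bounds, written as at least.

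**Figure D1:**
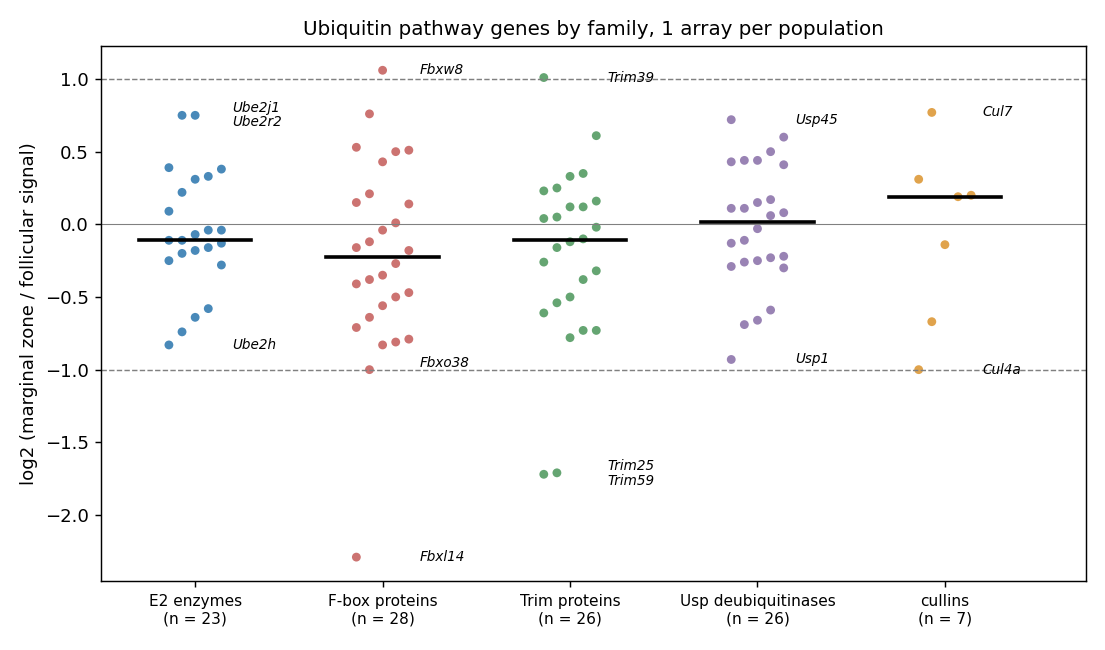
Each point is 1 measured gene, placed by family, with log2 of marginal zone over follicular signal on the vertical axis; black bars are family medians and dashed lines mark 2-fold. Fbxl14 at -2.29, Trim59 at -1.72 and Trim25 at -1.71 stand below the rest, Fbxw8 at 1.06 and Trim39 at 1.01 lie just above the upper line, and no E2 or Usp gene reaches either line with low signals raised to the floor.

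The promoters of the 3 members furthest below equality are shown because they are the clearest differences in the system. Those of Trim21, Trim26 and Trim34a are shown because these interferon-inducible ligases were also lower in marginal zone cells by their brightest probe sets. A second probe set of Trim21 had the opposite sign, at 0.32 on the log2 scale. Genes with the same core and the other direction are not shown. Each is the RefSeq window of GRCm38.p6 from 250 bases before to 50 after the annotated start. Capitals mark the interferon-stimulated response element core GAAANNGAAA, the composite Ets and interferon regulatory factor core GGAANNGAAA and the E-box CACGTG, found on either strand; the first 2 can overlap.
Trim25 (chr11:88999153-88999452, plus strand): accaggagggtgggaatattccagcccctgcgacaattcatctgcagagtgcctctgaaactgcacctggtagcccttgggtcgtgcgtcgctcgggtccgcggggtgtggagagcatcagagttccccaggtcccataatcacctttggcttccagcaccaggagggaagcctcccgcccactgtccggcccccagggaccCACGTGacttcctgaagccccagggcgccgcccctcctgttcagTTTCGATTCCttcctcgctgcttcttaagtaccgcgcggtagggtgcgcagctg
Trim59 (chr3:69044693-69044992, minus strand): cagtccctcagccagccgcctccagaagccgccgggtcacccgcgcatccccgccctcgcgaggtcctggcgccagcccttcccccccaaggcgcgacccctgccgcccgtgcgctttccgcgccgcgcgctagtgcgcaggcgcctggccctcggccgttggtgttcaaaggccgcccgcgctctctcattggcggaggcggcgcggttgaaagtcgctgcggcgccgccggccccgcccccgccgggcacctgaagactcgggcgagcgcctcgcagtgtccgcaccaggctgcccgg
Fbxl14 (chr6:119479418-119479717, plus strand): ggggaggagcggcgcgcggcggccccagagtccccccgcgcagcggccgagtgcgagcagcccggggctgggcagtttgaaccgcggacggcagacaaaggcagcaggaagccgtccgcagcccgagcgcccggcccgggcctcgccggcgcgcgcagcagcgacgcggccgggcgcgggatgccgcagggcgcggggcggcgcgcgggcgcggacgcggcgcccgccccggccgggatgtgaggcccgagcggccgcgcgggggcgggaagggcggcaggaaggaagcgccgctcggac
Trim21 (chr7:102565433-102565732, minus strand): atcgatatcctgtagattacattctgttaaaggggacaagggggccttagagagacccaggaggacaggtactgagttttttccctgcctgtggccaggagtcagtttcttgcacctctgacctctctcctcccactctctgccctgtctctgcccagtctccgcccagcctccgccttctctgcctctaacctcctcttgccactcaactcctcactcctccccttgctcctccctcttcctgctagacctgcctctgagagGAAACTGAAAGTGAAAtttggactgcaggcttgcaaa
Trim26 (chr17:36836896-36837195, plus strand): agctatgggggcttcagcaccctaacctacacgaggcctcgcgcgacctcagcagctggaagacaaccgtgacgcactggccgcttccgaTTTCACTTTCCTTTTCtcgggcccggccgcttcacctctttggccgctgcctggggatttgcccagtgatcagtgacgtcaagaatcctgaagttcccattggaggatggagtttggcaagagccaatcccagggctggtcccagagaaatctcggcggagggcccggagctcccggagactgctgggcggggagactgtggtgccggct
Trim34a (chr7:104244207-104244506, plus strand): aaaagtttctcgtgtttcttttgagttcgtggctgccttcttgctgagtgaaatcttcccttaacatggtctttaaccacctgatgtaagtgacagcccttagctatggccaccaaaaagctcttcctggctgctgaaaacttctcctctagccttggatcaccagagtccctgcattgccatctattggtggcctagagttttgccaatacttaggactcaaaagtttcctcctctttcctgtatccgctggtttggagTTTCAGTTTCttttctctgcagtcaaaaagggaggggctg

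The windows of Trim59 and Fbxl14 held none of the 3 motifs and were rich in G and C, at 76.7% and 82.7%, against a median of 52.7% over all 32851 promoter windows and 61.7% over those of the members. The Trim25 window held 1 composite core, which begins 4 bases before the start, and 1 E-box. Trim21 and Trim26 each held 2 overlapping interferon response cores and Trim34a held 1. Of the 147 genes, 109 had at least 1 promoter window in the RefSeq table, 143 windows in all. The interferon core was in 13 of these windows (9.09%), against 3.44% of all windows, with Fbxl15 and Trim30a each counted by 2 windows. By gene it was in 11 of 109 (10.1%), against 3.99% of all genes. Of these 11, 6 were among the 10 interferon-inducible members with a window. Among the measured genes that held it, Usp49, Trim30d and Cul1 were higher in marginal zone cells, at 0.43, 0.25 and 0.20 on the log2 scale. Trim21, Trim26, Trim34a, Fbxo36, Trim12a and Trim30a were lower. The composite core was in 4.20% of member windows against 2.72% of all, and the E-box in 4.90% against 7.15%. A match describes the letters of the window and does not show that a factor binds there.

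Of the 5 genes past 2-fold, Trim25 was the one with several measured probe sets. It encodes a RING ligase that is induced by interferon and ubiquitinates the viral RNA sensor RIG-I. Its signals were 406.0 in marginal zone and 1330.5 in follicular cells, 3.28-fold lower in marginal zone cells. Another probe set gave 173.9 in marginal zone and 548.2 in follicular cells, and the last was under the floor, at 12.2, in marginal zone cells. All 3 were lower in marginal zone cells, at -1.71, -1.66 and -0.98 on the log2 scale, the last relative to the floor.

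Trim59, a Trim protein with a membrane anchor, had a signal of 71.1 in marginal zone and 234.2 in follicular cells, 3.30-fold lower in marginal zone cells. Fbxl14, an F-box receptor reported to send Snail transcription factors to degradation, had 15.9 in marginal zone and 77.9 in follicular cells, 4.89-fold lower. Each rests on a single probe set, and the marginal zone signal of Fbxl14 was close to the floor. With the floor raised to the 75th percentile the log2 ratio of Fbxl14 was -0.77, no longer past 2-fold.

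The genes past 2-fold in the other direction were close to the line. Fbxw8, the F-box receptor that pairs with the scaffold Cul7, had signals of 62.9 in marginal zone and 30.2 in follicular cells, 2.08-fold higher in marginal zone cells. Trim39, a ligase reported to stabilise the apoptosis protein Moap1, had 87.8 in marginal zone and 43.6 in follicular cells, 2.02-fold higher. Both have 1 measured probe set, and both dropped under 2-fold with the floor at the 75th percentile, at 0.46 for Fbxw8 and 0.94 for Trim39 on the log2 scale, and with the floor added as a pseudocount, at 0.82 and 0.84. Just short of the threshold lay Fbxo38, at 60.8 in marginal zone and 121.2 in follicular cells, 1.99-fold lower. Cul4a was at least 1.99-fold lower relative to the floor, just under the threshold, so it was not counted past 2-fold. Without a floor it was at -1.07 on the log2 scale, past 2-fold.

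The summed signal of the 13 macrophage and monocyte markers on the array was 295.0 in the marginal zone and 132.8 in the follicular sample. The 9 measured markers had a median log2 ratio of 0.95. In 5 of the 9 the follicular array was under the floor, so passing the floor fixed their sign. Of the others, Csf1r was at 42.5 in marginal zone and 17.3 in follicular cells. Mpeg1 was at 84.6 in marginal zone and 33.9 in follicular cells, and Lyz2 at 25.2 and 12.9. Adgre1 was near equality, at 0.07 on the log2 scale. Marco, Itgam, C1qa and C1qc lay under the floor on both arrays. There C1qa was brighter in the marginal zone sample, and Marco, Itgam and C1qc in the follicular sample. The part of macrophages in any member's difference was not tested. The 6 erythroid markers were all under the floor in the marginal zone sample, and 2 of them, Hba-a1 and Klf1, were above it in the follicular sample, at 15.0 and 16.5. All 7 B cell markers on the array were above the floor in both, with summed signals of 5053 in marginal zone and 5501 in follicular cells. Summed signals of the dendritic cell, granulocyte and natural killer cell lists were 69.1, 75.5 and 78.5 in the marginal zone sample, against 50.1, 57.4 and 49.1 in the follicular sample, with at least 3 markers of each list under the floor on both arrays. The T cell list summed to 382.9 in marginal zone and 393.6 in follicular cells, mostly from Cd2, at 345.7 in marginal zone and 305.1 in follicular cells. The other 3 measured T cell markers were lower in marginal zone cells. Zap70 was at 20.0 in marginal zone and 47.2 in follicular cells. Cd3e and Cd4 were under the floor in marginal zone cells and at 17.2 and 13.9 in follicular cells. Passing the floor therefore fixed the sign of Cd3e and Cd4. Of the T cell markers under the floor on both arrays, Cd3d, Cd3g and Cd8a were brighter in the marginal zone sample. Thy1 was brighter in the follicular sample, and Cd8b1 was equal. The plasma cell list summed to 1250 in marginal zone and 1032 in follicular cells, with Prdm1 at 30.9 in marginal zone and 12.7 in follicular cells, and Xbp1 at 659.0 in marginal zone and 396.6 in follicular cells. The plasma cell marker Sdc1 was under the floor in marginal zone cells and at 68.3 in follicular cells. In sorted pools, fewer cells of a type and less RNA per cell cannot be told apart.

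**Figure D2:**
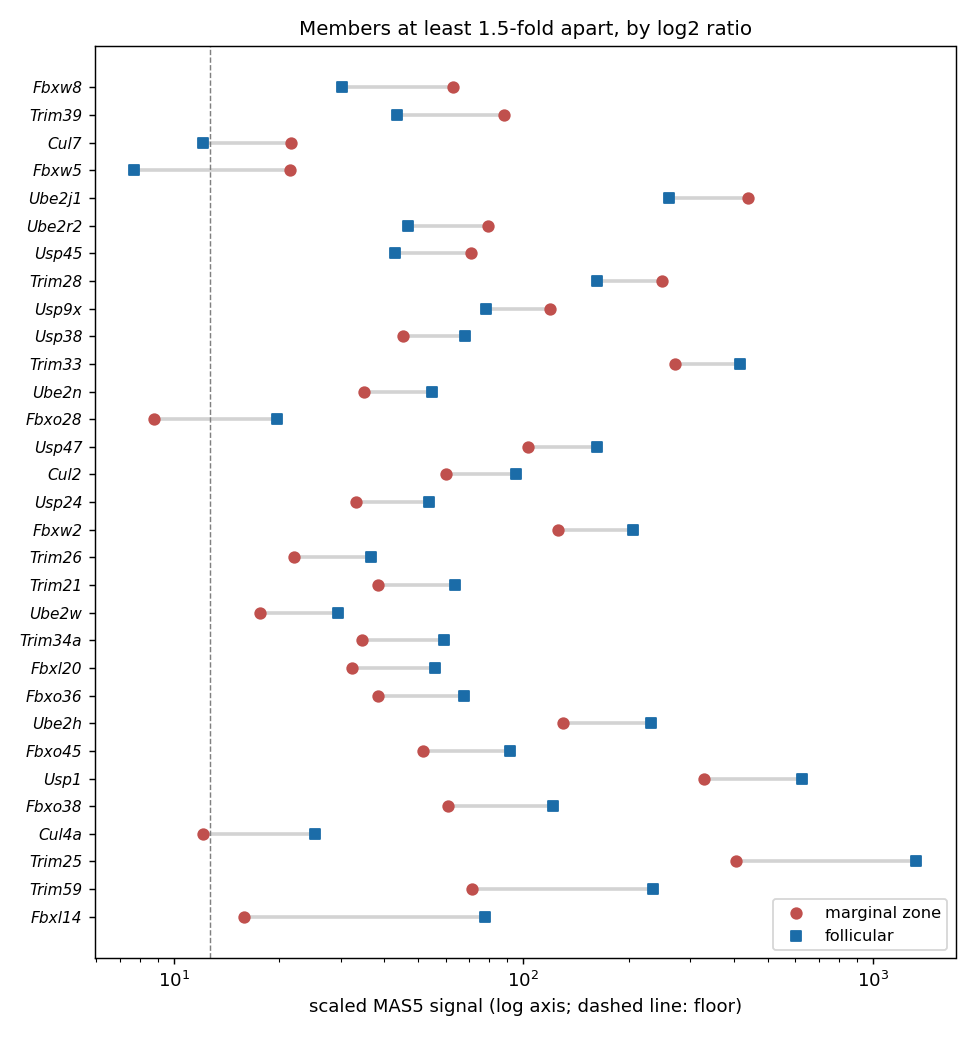
Scaled MAS5 signals (log axis) of the 31 members at least 1.5-fold apart, with circles for marginal zone and squares for follicular cells, ordered by log2 ratio; the dashed line is the floor of 12.7. The 9 genes at the top were brighter on the marginal zone array and the 22 below them on the follicular array, and Trim25, Trim59 and Fbxl14 at the bottom have the widest gaps.

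No E2 enzyme was counted past 2-fold, against 9.25% of all genes. Without a floor 2 were, against 808 genes higher and 890 lower of all 7695. Of 26 E2 genes on the array 23 were measured. In marginal zone cells 8 were higher and 15 (65.2%) lower, against 52.2% of all genes lower. The median was -0.11, with quartiles at -0.22 and 0.27. The Ube2d enzymes work with very many RING ligases. Ube2d3 had signals of 1565.9 in marginal zone and 1260.7 in follicular cells, with 7 probe sets from -0.32 to 0.59, and Ube2d2a had 557.2 in marginal zone and 603.1 in follicular cells, with 4 probe sets from -0.32 to -0.11. Ube2d1 was under the floor in marginal zone cells, at 8.1, and at 15.4 in follicular cells, at least 1.21-fold lower.

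Ube2j1, an enzyme anchored in the endoplasmic reticulum that helps to clear misfolded secretory proteins, was at 439.7 in marginal zone and 260.8 in follicular cells, 1.69-fold higher in marginal zone cells. Its other probe set had the same sign and a larger ratio, 63.6 in marginal zone against 27.3 in follicular cells, or 1.22 on the log2 scale. Of the plasma cell list, Xbp1, Prdm1 and Jchain were higher in marginal zone cells as well, at 0.73, 1.28 and 0.47 on the log2 scale. Irf4 was at -0.01, and Sdc1 was lower, at -2.43 relative to the floor. The 4 measured probe sets of Xbp1 ran from -0.98 to 0.73. The part of these genes in the Ube2j1 value was not tested. The relative of Ube2j1, Ube2j2, was at 157.1 in marginal zone and 186.6 in follicular cells, and Ube2g1 and Ube2g2, soluble enzymes of the same process, had log2 ratios of -0.18 and 0.09.

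Ube2k, which builds chains that direct proteins to the proteasome, was at 384.2 in marginal zone and 574.8 in follicular cells, a log2 ratio of -0.58. Ube2n, the enzyme of signalling chains downstream of Toll-like receptors and CD40, was at 35.0 in marginal zone and 54.8 in follicular cells, 1.56-fold lower in marginal zone cells. Its catalytically inactive partners were closer to equality. Ube2v1 was at 124.3 in marginal zone and 127.7 in follicular cells, and Ube2v2 at 30.6 in marginal zone and 33.5 in follicular cells. Ube2h, known for its induction during red cell formation, was at 129.9 in marginal zone and 231.5 in follicular cells, 1.78-fold lower. Ube2w, which modifies protein amino termini, was 1.67-fold lower, with both probe sets below 0. On the other side, Ube2r2, the relative of the cullin-ligase enzyme Cdc34, was at 79.1 in marginal zone and 46.9 in follicular cells, 1.69-fold higher in marginal zone cells.

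The enzymes of DNA damage tolerance Ube2a and Ube2b were at 208.6 and 349.3 in marginal zone cells, against 213.8 and 266.0 in follicular cells; a second probe set of Ube2a stood at 0.96 on the log2 scale. Of the enzymes for ubiquitin-like proteins, Ube2f, which carries Nedd8 to cullins, was at 110.3 in marginal zone and 126.7 in follicular cells. Ube2l6, which carries the interferon-induced modifier Isg15, was under the floor on both arrays, at 4.4 in marginal zone and 1.3 in follicular cells. Ube2s, a chain-extending enzyme of the anaphase-promoting complex, was at 16.4 in marginal zone cells and under the floor in follicular cells, at 1.6, at least 1.30-fold higher. Ube2e2 was at 14.7 in marginal zone cells and under the floor, at 1.2, in follicular cells, at least 1.16-fold higher.

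F-box genes had a median of -0.22 over 28 measured of 36 members. In marginal zone cells 10 were higher and 18 (64.3%) lower, against 52.2% of all genes lower. Past 2-fold were Fbxl14 and Fbxw8. These 2 are 7.14% of the family, against 9.25% of all genes. At 1.5-fold 7 of the 28 were lower and 2 higher, against 15.8% and 13.7% of all genes. Fbxo45, Fbxo36 and Fbxl20 were 1.78-fold, 1.75-fold and 1.74-fold lower in marginal zone cells, each by 1 measured probe set. Fbxw2 was 1.64-fold lower by its brightest probe set, while its other 3 were at -0.50, -0.10 and just under 0.

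Fbxo11, which targets the germinal centre repressor BCL6 in human B cells, was at 228.5 in marginal zone and 323.4 in follicular cells, a log2 ratio of -0.50. Fbxw7, a receptor for Myc, cyclin E and Notch, was at 81.3 in marginal zone and 119.9 in follicular cells, and its 2 probe sets gave -0.56 and -0.66. Fbxw11, a receptor for inhibitors of NF-kB and for beta-catenin, was at 1117.1 in marginal zone and 792.6 in follicular cells, which is 1.41-fold higher in marginal zone cells, though the other probe set stood at -0.21 on the log2 scale. Fbxo33 was at 297.7 in marginal zone and 387.1 in follicular cells, with both probe sets below 0. Fbxw5, at 21.5 in marginal zone cells and under the floor in follicular cells, was at least 1.70-fold above its follicular level. Fbxo28, at 8.8 in marginal zone and 19.8 in follicular cells, was at least 1.56-fold lower. Fbxo4 and Fbxw4 were at 73.1 and 32.9 in marginal zone cells, against 50.5 and 23.0 in follicular cells.

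The cullins, all 7 of them measured, split by gene. Cul1, the scaffold of F-box ligases, was at 335.3 in marginal zone and 291.2 in follicular cells. Cul3, the scaffold of BTB-domain receptors, was at 271.8 in marginal zone and 299.6 in follicular cells, although its other probe sets gave 0.99 and -0.02 on the log2 scale. Cul2, the scaffold used by the hypoxia regulator Vhl, was at 60.0 in marginal zone and 95.4 in follicular cells, 1.59-fold lower in marginal zone cells, with its other probe set at -0.90.

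The paralogs Cul4a and Cul4b share the adaptor Ddb1. Cul4a was under the floor in marginal zone cells, at 12.1, and at 25.3 in follicular cells. Cul4b was at 235.7 in marginal zone and 206.8 in follicular cells, and its other probe set stood at -0.19. Cul7, the partner of Fbxw8, was at 21.7 in marginal zone cells and under the floor, at 12.1, in follicular cells, a ratio of at least 1.71-fold. Cul9, at 15.7 in marginal zone and 5.6 in follicular cells, was at least 1.24-fold higher. The Cul7 and Fbxw8 ratios have the same sign, each from 1 measured probe set.

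Of 39 Trim genes 26 were measured, 11 of them higher and 15 lower in marginal zone cells. Their median was -0.11. The 3 genes past 2-fold made up 11.5% of them, near the 9.25% of all genes. Interferon-inducible members were counted from a list of known cases. Of 8 measured, 7 were lower in marginal zone cells, 1 of them past 2-fold, and their median was -0.49. Of all measured genes 52.2% were lower, 4.86% were past 2-fold lower and the median was -0.03. The list was chosen with earlier results of these data known and so is no independent evidence of direction. Beside Trim25, Trim34a was at 34.5 in marginal zone and 59.2 in follicular cells, Trim21 at 38.5 in marginal zone and 63.8 in follicular cells, and Trim26 at 22.1 in marginal zone and 36.6 in follicular cells. These 3 were 1.71-fold, 1.66-fold and 1.66-fold lower in marginal zone cells. Smaller gaps were seen for Trim12a, at 115.1 in marginal zone and 137.4 in follicular cells, Trim30a, at 279.7 in marginal zone and 312.0 in follicular cells, and the protease Usp25, at 137.2 in marginal zone and 162.6 in follicular cells. Trim30d, at 17.0 in marginal zone and 14.3 in follicular cells, was the exception.

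Not all of these directions held between probe sets. Trim21, the cytosolic antibody receptor, was 1.66-fold lower in marginal zone cells by 1 probe set, but the other gave 15.8 in marginal zone and 3.5 in follicular cells, the opposite sign. Trim30a, a regulator of Toll-like receptor signalling, had a second probe set at 66.0 in marginal zone and 24.5 in follicular cells, 1.43 on the log2 scale, and its mean over probe sets was 0.64. A further probe set annotated to both Trim30a and Trim30d was at 24.5 in marginal zone and 13.9 in follicular cells. The genes Trim6, Trim34a, Trim12a, Trim30a and Trim30d lie in 1 cluster of related Trim genes on chromosome 7, whose probe sets may not tell the copies apart. Usp18 and Ube2l6, the Isg15 protease and E2 enzyme, and Fbxo6 were under the floor on both arrays. Of the 37 members without a measured probe set, 13 were Trim, 13 Usp, 8 F-box and 3 E2 genes.

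Trim28, the corepressor of zinc-finger proteins, was at 249.3 in marginal zone and 162.8 in follicular cells, 1.53-fold higher in marginal zone cells. Trim33, a regulator of Smad signalling, was at 271.8 in marginal zone and 415.8 in follicular cells, 1.53-fold lower, and its relative Trim24 was at 82.6 in marginal zone and 120.2 in follicular cells. Trim27 was at 247.6 in marginal zone and 240.6 in follicular cells, with its other probe sets at 0.32 and 0.56. Trim10, a Trim gene of red cell precursors, sat at the floor, at 13.7 in marginal zone and 13.2 in follicular cells. Trim11 and Trim41 were at 49.4 and 45.9 in marginal zone cells, against 69.8 and 59.6 in follicular cells, and Trim7 and Trim44 at 54.1 and 112.7 in marginal zone cells, against 46.3 and 100.6 in follicular cells.

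**Figure D3:**
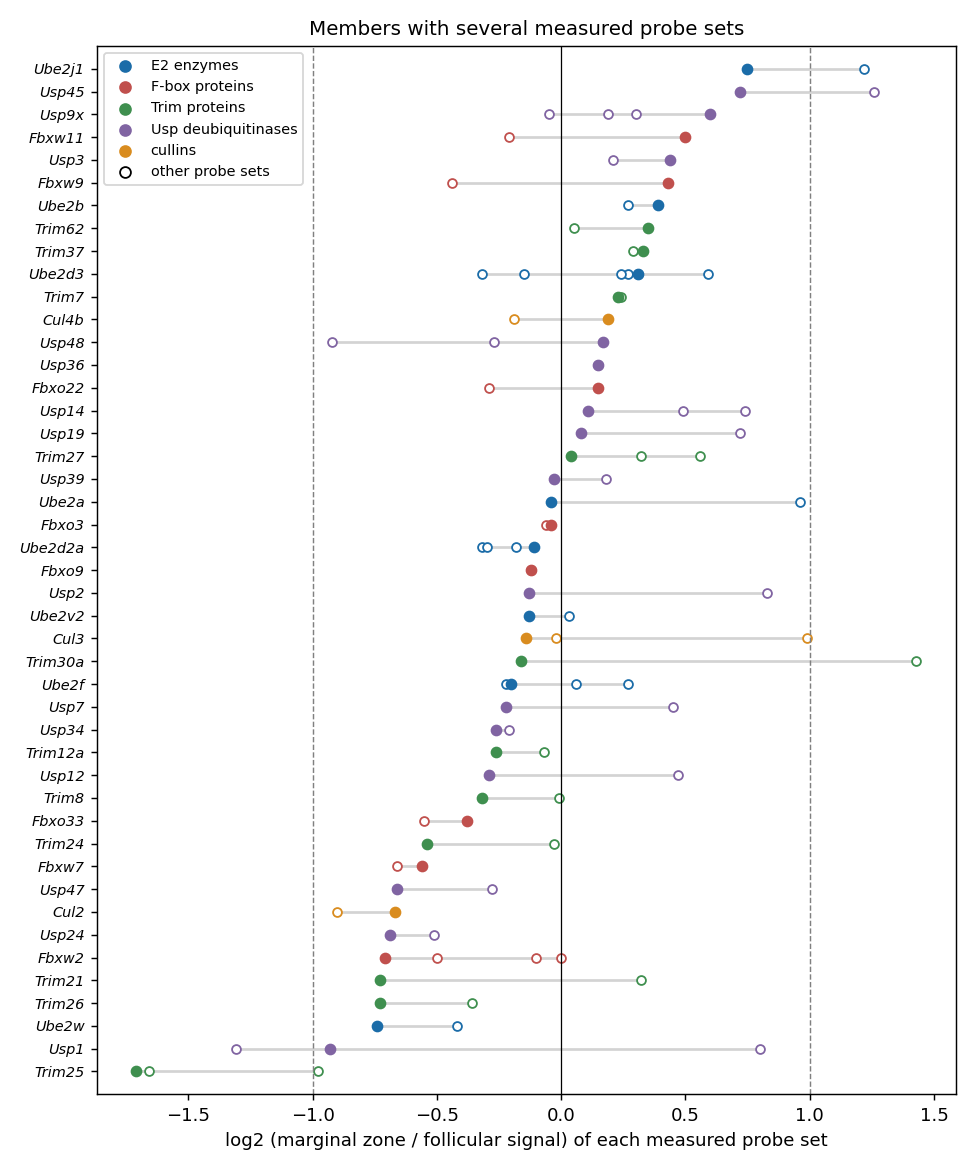
Log2 of marginal zone over follicular signal for every measured probe set of the 45 members that have several; filled points are the brightest probe set of a gene and open points the others, coloured by family, with dashed lines at 2-fold. All 3 probe sets of Trim25 lie to the left and both of Ube2j1 and of Usp45 to the right, while those of Usp1 and Trim30a fall on both sides of 0.

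The Usp proteases had a median near equality. Of 39 on the array 26 were measured, 13 were higher and 13 lower in marginal zone cells, none was counted past 2-fold, and the median was 0.01. Usp1, which removes ubiquitin from DNA repair proteins, came closest, at 329.0 in marginal zone and 628.5 in follicular cells, 1.91-fold lower in marginal zone cells. Its other probe sets disagreed: 1 gave 41.6 in marginal zone and 103.3 in follicular cells, and the other 30.4 in marginal zone and 17.5 in follicular cells. The mean over the 3 was -0.48.

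Usp45, a protease of DNA excision repair, had the highest ratio of the Usp genes, 1.64-fold, at 70.8 in marginal zone and 43.0 in follicular cells. Its other measured probe set was at 41.0 in marginal zone and 17.1 in follicular cells, 1.26 on the log2 scale. Usp9x, a protease of many substrates including the survival factor Mcl1, was 1.52-fold higher at 119.1 in marginal zone and 78.3 in follicular cells, and the log2 ratios of its other 3 probe sets ran from -0.05 to 0.30. Lower in marginal zone cells were Usp24 at 1.62-fold, Usp47 at 1.58-fold and Usp38, which was at 45.2 in marginal zone and 67.9 in follicular cells. Both probe sets of Usp24 (-0.69 and -0.51) and of Usp47 (-0.66 and -0.28) had that sign.

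Usp7, which controls the p53 ligase Mdm2, was at 493.6 in marginal zone and 574.1 in follicular cells, with a second probe set at 0.45 on the log2 scale. Usp39, a splicing factor that lacks protease activity, was at 312.4 in marginal zone and 318.4 in follicular cells. Usp14, which works on the proteasome, was at 82.0 in marginal zone and 76.2 in follicular cells, with all 3 probe sets above 0. Usp9y, a gene of the Y chromosome, was under the floor in both samples, at 8.6 in marginal zone and 6.4 in follicular cells; the mice were female. Usp3 and Usp11 were at 134.7 and 57.7 in marginal zone cells, against 99.4 and 42.4 in follicular cells, and Usp34 and Usp10 at 220.6 and 116.1 in marginal zone cells, against 264.4 and 125.6 in follicular cells. Usp20 was at 17.9 in marginal zone cells and under the floor, at 9.3, in follicular cells, at least 1.41-fold higher.

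Of the 45 members with several measured probe sets, 27 (60.0%) had all of them on 1 side of 0, against 59.3% of all such genes. Of these 27, 16 were lower and 11 higher in marginal zone cells. The SD between probe sets of 1 member was 0.41 on the log2 scale, about as wide as the lower quartile of the members' ratios, -0.45. The other 65 measured members had 1 measured probe set each.

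Related genes of the pathway, from lists of other steps, were counted in the same way; the lists were chosen with earlier results known. All 5 listed E1 genes with a probe set of their own serve ubiquitin-like proteins: Uba3, Nae1, Uba7, Sae1 and Atg7. Activation of ubiquitin itself was therefore not covered. None of the 5 was past 2-fold, against 9.25% of all genes, and their median was -0.10. The E1 of Isg15, Uba7, was at 101.3 in marginal zone and 59.4 in follicular cells, 1.71-fold higher in marginal zone cells, with 3 probe sets from -0.02 to 1.14. Ubiquitin-like proteins had a median of -0.38 over 7 genes: the cullin activator Nedd8 was at 84.3 in marginal zone and 52.1 in follicular cells, and Sumo3 at 111.2 in marginal zone and 179.5 in follicular cells. Urm1 had the highest ratio of that list, 0.86, and another of its probe sets stood at -0.45.

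Among cullin adaptors and exchange factors 15 were measured, with 1 past 2-fold in each direction, which is 13.3% against 9.25% of all genes. Dcun1d1, which promotes the attachment of Nedd8 to cullins, was at 34.1 in marginal zone and 13.5 in follicular cells, 2.52-fold higher in marginal zone cells. Klhl9, a receptor of Cul3, was at 16.0 in marginal zone and 36.9 in follicular cells, 2.30-fold lower, and Keap1, the Cul3 receptor that senses oxidative stress, was at 28.1 in marginal zone and 46.8 in follicular cells. The COP9 signalosome, which takes Nedd8 off cullins, had all 10 subunits measured and none past 2-fold, against 9.25% of all genes. Its median was 0.19. Its subunits ranged from Cops7a, at 16.3 in marginal zone and 28.0 in follicular cells, to Cops9, at 213.9 in marginal zone and 136.5 in follicular cells; a second Cops7a probe set stood at 0.64 on the log2 scale.

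Of 16 measured deubiquitinases outside the Usp family, 1 (6.25%) was counted past 2-fold, against 9.25% of all genes. It was Stambpl1, a metalloprotease of endosomes, at 30.6 in marginal zone and 66.2 in follicular cells, 2.16-fold lower. Otulin, which cuts linear chains, was at 381.5 in marginal zone and 557.2 in follicular cells, and Tnfaip3, the NF-kB inhibitor A20, sat at the floor, at 14.0 in marginal zone and 13.0 in follicular cells. All 10 SUMO proteases and ligases and all 32 further ligases measured were counted under 2-fold, against 9.25% of all genes past it. Their medians were -0.20 and 0.05. The ligase Huwe1 was at 414.5 in marginal zone and 233.8 in follicular cells, 1.77-fold higher in marginal zone cells, but its probe sets ran from -0.20 to 0.83. Peli1, a ligase that restrains NF-kB signalling in lymphocytes, was at 296.1 in marginal zone and 475.4 in follicular cells, and its probe sets ran from -0.68 to -0.53.

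The 8 measured cell cycle-linked members had a median of -0.16. In marginal zone cells 3 were higher and 5 (62.5%) lower, against 52.2% of all genes lower. The 4 measured erythroid-enriched members had a median of -0.17, led by Ube2h. None of either list was past 2-fold, against 9.25% of all genes. The erythroid markers Hba-a1 and Klf1 were just above the floor of 12.7 in the follicular sample, at 15.0 and 16.5. The other erythroid markers were under the floor on both arrays. There Alas2, Slc4a1 and Epb42 were brighter in the marginal zone sample and Car1 in the follicular sample. The part of erythroid cells in the median of these members was not tested.

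**Figure D4:**
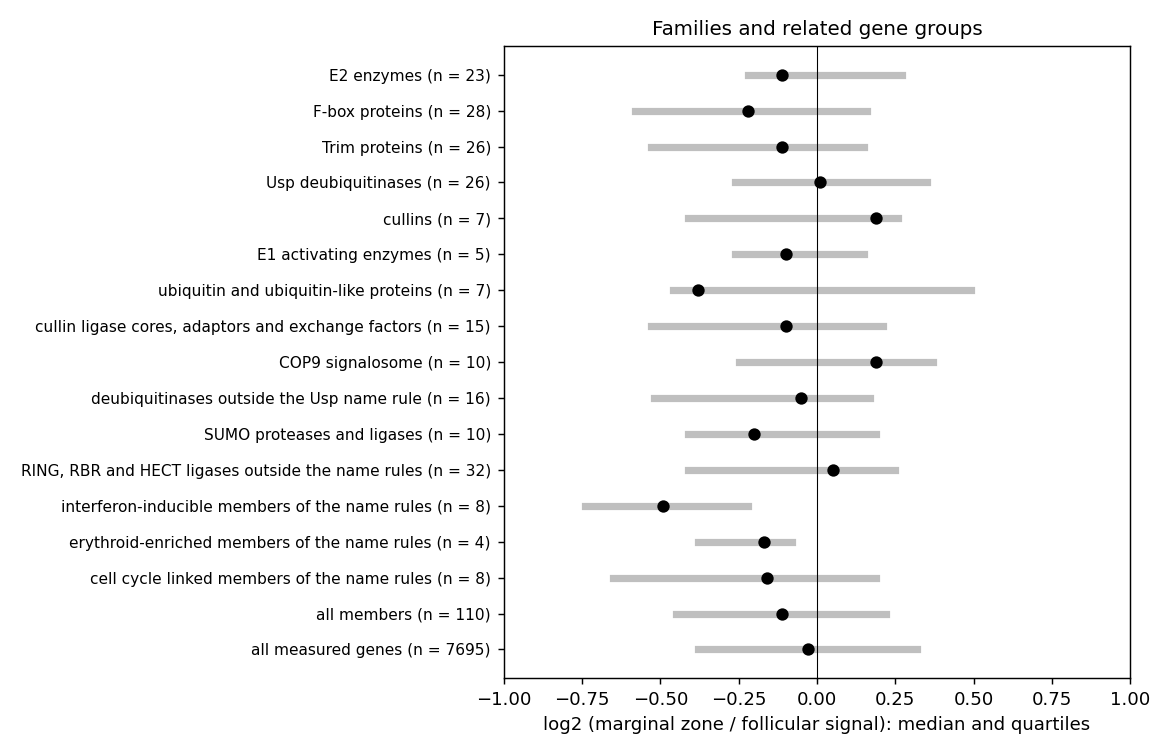
Median (point) and quartiles (bar) of log2 marginal zone over follicular signal for the families, the lists of related genes, 3 lists drawn from the members (interferon-inducible, erythroid-enriched and cell cycle-linked), all members and all measured genes. The medians run from -0.49 for interferon-inducible members to 0.19 for cullins and the COP9 signalosome, and the bars of the interferon-inducible members, from -0.74 to -0.22, and of the 4 erythroid-enriched members, from -0.38 to -0.08, do not cross 0.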

How the data were processed

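Per the submitters' processing notes, the deposited intensities are linear MAS5 signals, which combine the perfect-match and mismatch probes of a set. Neither its version nor a scaling target was given in the sources used here. Deposited intensities spanned 0 to 8203.3 for marginal zone and 0.1 to 8520.6 for follicular cells over 22626 probe sets.

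Each array was multiplied to a common 2% trimmed mean (factors 0.990 for marginal zone and 1.01 for follicular cells), and values under the median of all scaled values, 12.7, were raised to it. Of the probe sets, 20380 had 1 gene in the platform annotation, 691 had several and were set aside, and 1555 were not listed. Entrez identifiers of 20351 were matched to the RefSeq table of GRCm38.p6. A gene took its brightest measured probe set, by mean log2 signal. Promoters came from the RefSeq table of the same build, with motifs searched on both strands.

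With 1 array per population no test was possible. The members and lists were chosen with earlier results of these data known. Genes named by rule were those past 2-fold, the 3 with the highest signals per family, all cullins and, in each related list, the members past 2-fold or with the largest ratios, up to 4. Other genes were named after their values were seen. Alternatives covered 4 scalings, 4 treatments of low signals, 2 probe set rules and 2 thresholds, and 2 more were chosen after seeing the data. The procedure was tested on simulated data with changes planted only in bright genes, so recovery of changes near the floor was not covered. In the E2 family, 1 gene is not reported here. Computation used Python 3.11.15, pandas 2.3.3 and NumPy 2.4.6.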

Additional observations from a re-analysis of the deposited data

How the results depend on the processing

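The counts depended on how low signals were treated. With the floor at the 25th percentile, 12 of 136 members were past 2-fold higher and 10 lower in marginal zone cells, against 1277 and 1389 of 11035 genes. These members were 3 E2, 6 F-box, 9 Trim, 2 Usp and 2 cullin genes. More dim genes enter there. With no floor there were 7 higher and 7 lower of 110 members, against 808 and 890 of 7695 genes. These members were 2 E2, 4 F-box, 6 Trim and 2 cullin genes. With the floor at the 75th percentile, 0 of 73 members were higher and 2 lower, against 125 and 143 of 3907 genes, and 0 F-box genes were past 2-fold. Low signals are raised to a higher floor there and fewer genes are measured. With the floor as a pseudocount 1 of 110 members was higher and 3 lower, against 272 and 320 of 7695 genes, and 1 E2 and 1 F-box gene were past 2-fold. At 1.5-fold there were 9 higher and 22 lower of 110 members, against 1051 and 1218 of 7695 genes. These members were 5 E2, 9 F-box, 8 Trim, 6 Usp and 3 cullin genes. At 3-fold there were 0 higher and 3 lower, 1 of them an F-box gene, against 66 and 67 of 7695 genes. The 4 scalings, both probe set rules and the restriction to genes with all probe sets of 1 sign left 2 higher and 3 lower. Trim25 (-1.73 to -1.45) and Trim59 (-1.72 to -1.56) were past 2-fold under all 10 alternatives that gave them a log2 ratio. Fbxl14 was past 2-fold under 9, and Fbxw8 and Trim39 under 8 each. Trim59, Fbxl14, Fbxw8 and Trim39 have 1 probe set each and both signals above the floor. Both probe set rules, the floor at the 25th percentile and no floor therefore could not change their values. Those floor settings could not change the Trim25 value either. The median of all members ran from -0.14 to -0.05, of E2 genes from -0.11 to -0.05, of F-box genes from -0.36 to -0.18, of Trim genes from -0.37 to -0.06, of Usp genes from -0.03 to 0.10 and of cullins from 0.02 to 0.24. The F-box median was under the Trim median except with the floor at the 75th percentile (-0.36 for F-box and -0.37 for Trim) and as a pseudocount (-0.19 for F-box and -0.20 for Trim). No paired analysis was possible because each population has 1 array.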

Other observations

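Probe sets annotated to several genes were outside the comparison. Of 4 probe sets shared by Ube2l3, an E2 enzyme of the linear ubiquitin and Parkin ligases, with gene models, 3 were higher in marginal zone cells: 271.8 in marginal zone and 184.2 in follicular cells, 102.9 and 83.3, and 38.4 and 33.5. The other was lower, at 70.9 in marginal zone and 86.0 in follicular cells. A probe set shared by Trim17 and the histone gene H2aw was at 82.4 in marginal zone and 185.9 in follicular cells, -1.17 on the log2 scale, while the probe set of Trim17 alone was at 2.2 on both arrays.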
